A study of Rattus norvegicus with 14 samples.

Results

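The regions described are the windows at the ends of the 20 rat autosomes, in a table of DNA methylation given for windows of 1000 bp. The proximal end of a chromosome was taken as all windows that start within its first 2 Mb, and the distal end as all windows that end within 2 Mb of the last position measured on it. This gave 5381 of the 194367 windows, 2358 of them at proximal and 3023 at distal ends. They make up 2.85% of the autosomal windows. The assay was RRBS (reduced representation bisulfite sequencing), in which MspI cuts DNA at CCGG, short fragments are kept and bisulfite converts unmethylated cytosines, so that CpG-rich sequence is read preferentially. The tissue was the soleus of the left leg, a calf muscle made mainly of slow fibres. All rats were female and 23 to 24 months old. There were 6 samples of the line bred for high running capacity (HCR) and 8 of the line bred for low running capacity (LCR), both in generation 44 of selection from genetically heterogeneous N:NIH stock, fed chow ad libitum and sampled at baseline. Whether each sample came from a different rat is not stated, so the spread behind the p-values may be technical. Values after ± are SDs over 6 samples for HCR and 8 for LCR, or over 14 where both lines are pooled.

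The ends of mammalian chromosomes carry telomere repeats, and inward of them lie subtelomeres, regions in which repeated and duplicated sequence alternates with genes. Subtelomeric CpGs in somatic cells are methylated largely by the methyltransferase DNMT3B, whose loss in humans leaves them unmethylated, while CpG islands at gene promoters mostly stay free of methylation. On chromosomes whose centromere lies close to one end, the windows there also border pericentromeric repeats. The genes and sequences at the positions given here were not analysed, and the file starts and stops where values exist, so distances are from the first base of a chromosome on rn7 or from the last window measured.

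Levels below are percent methylation of a window in a sample. Of the 5381 windows 3858 (71.7%) had a value in all 14 samples, 1639 at proximal and 2219 at distal ends, and these common windows were used unless stated. Read depth was unknown. Samples had a value in 170846 to 191662 windows of the file. The rest of a chromosome means its windows outside both ends, and means over chromosomes give each of the 20 autosomes the same weight.

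Proximal ends were more methylated than the rest of their chromosomes, and distal ends less. The proximal level averaged 43.1% ± 0.686 in HCR, against 42.5% ± 0.801 in LCR, while the rest of the same chromosomes stood at 36.1% ± 1.00 in HCR and 34.99% ± 1.05 in LCR. In each sample the proximal ends exceeded the rest, by 6.69 to 7.97 percentage points and by 7.29 points on average (SD 0.426, n = 14; exact sign-flip permutation test over samples, two-sided, p = 0.000122, its smallest possible value). The distal level averaged 33.98% ± 0.741 in HCR, against 33.2% ± 0.775 in LCR. It lay below the rest in all 14 samples, with a mean difference of -1.97 points (SD 0.362, n = 14; exact sign-flip p = 0.000122). Proximal ends stood 9.26 points above distal ends (SD 0.203, n = 14, higher in 14 of 14 samples; exact sign-flip p = 0.000122). The sizes depended on how chromosomes were weighted. With all windows pooled at equal weight, proximal minus rest was 3.11 points and distal minus rest -5.83 points (exact sign-flip p = 0.000122 each), so that the distal ends departed more, and the pooled levels were 38.1% at proximal ends, 29.2% at distal ends and 35.02% in the rest. With medians over windows in place of means, distal minus rest was -4.31 points. The windows are the same in every library, so these tests cover the spread between libraries and say nothing of the spread between chromosomes, which was far larger.

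Proximal ends differed widely between chromosomes. Levels of the 20 proximal ends ranged from 24.95% on chromosome 9 to 65.6% on chromosome 3, with a median of 39.95%. Chromosome 3 was highest at 65.6% ± 0.670 (SD, n = 14) over 73 common windows, against 33.7% in the rest of it, and samples ranged from 64.8% to 66.8%. None of its 73 windows (0%) had a mean under 10%, the range of unmethylated CpG islands, and 47.9% had one of at least 70%. Chromosome 13 followed at 63.0% ± 1.31 over 36 windows, and chromosome 6 at 60.4% ± 0.853 over 53 windows. Chromosomes 8, 5 and 1 had 57.7%, 56.9% and 56.8%. The lowest proximal ends were those of chromosome 9 at 24.95% ± 0.985, chromosome 16 at 27.3% ± 1.36 and chromosome 7 at 28.2% ± 1.01 (SD, n = 14 each). There 47.3%, 37.4% and 45.2% of the windows had a mean under 10%. In all, 13 proximal ends were above and 7 below the rest of their chromosome on average. In 13 of the 20 every sample was above and in 6 every sample was below, the exception being chromosome 15 with 5 samples above.

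Distal ends spanned a narrower range and were mostly low. They ranged from 21.2% on chromosome 7 to 52.8% on chromosome 18, with a median of 31.3%, and 13 of 20 were below the rest of their chromosome. The lowest were chromosome 7 at 21.2% ± 0.872 (SD, n = 14), chromosome 10 at 22.9% ± 1.10 and chromosome 3 at 23.8% ± 1.07, over 271, 286 and 250 common windows, of which 44.6%, 44.1% and 43.2% had a mean under 10%. On chromosome 3 the distal end minus the rest was -9.90 points, whereas the proximal end minus the rest was 31.9 points. The highest distal ends were chromosome 18 at 52.8% ± 0.819 over 36 windows, chromosome 16 at 50.6% ± 1.53 over 18 windows and chromosome 19 at 43.6% ± 1.70 over 68 windows. The proximal end was above the distal end on 14 chromosomes and below it on 6. Across the 20 chromosomes the levels of both ends had a Pearson correlation of -0.37, given as a description over chromosomes read in the same libraries.

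**Figure D1:**
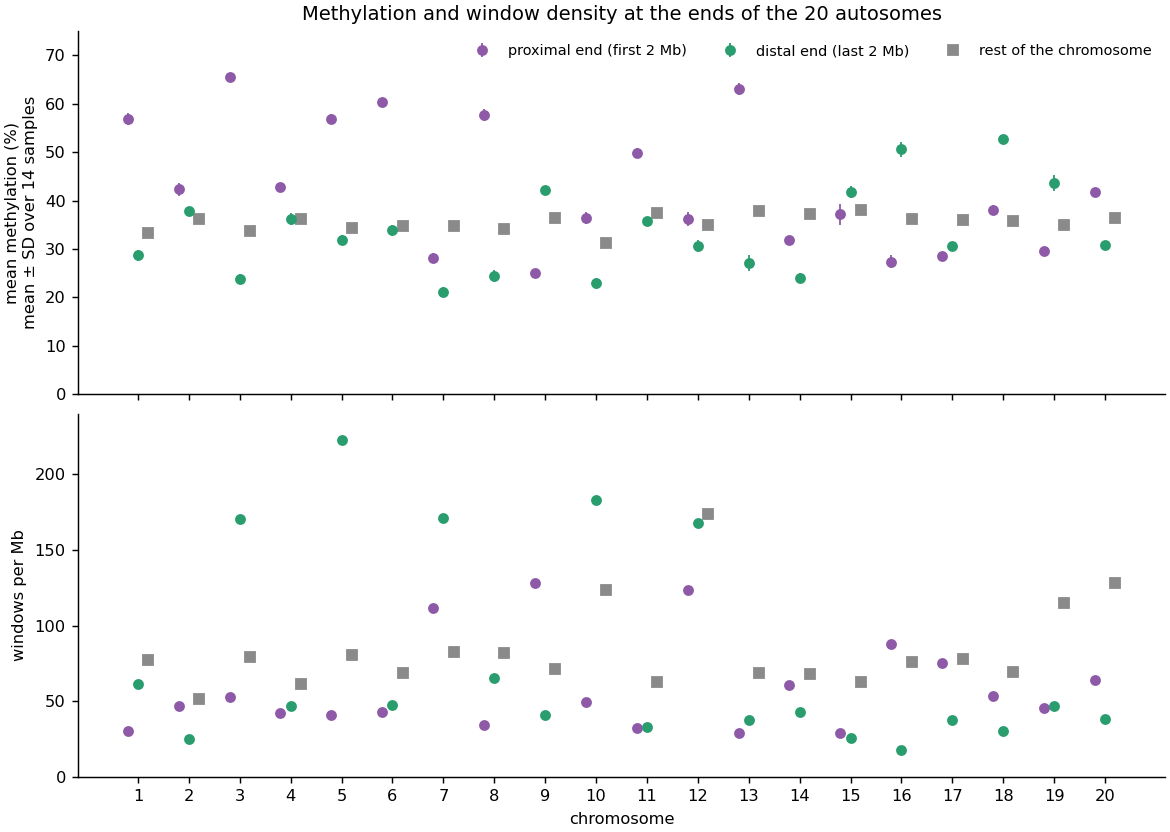
The upper panel plots the mean methylation (%) of the proximal end, the distal end and the rest of each of the 20 autosomes over 14 samples (bars, SD; none drawn for the rest), and the lower panel the windows per Mb. Proximal ends spread from 24.95% to 65.6% and the rest of the chromosomes only from 31.2% to 38.0%, and the ends with over 150 windows per Mb are all distal.

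Set against interior stretches of the same size, 7 of the 40 ends stood at an extreme of their chromosome. The interior of the autosomes was divided into intervals of 2 Mb, and those with at least 20 common windows were ranked by level. The proximal ends of chromosomes 3 and 6 were above all 80 and all 66 such intervals of their chromosomes. The proximal end of chromosome 9 was below all 54 of its own. The distal ends of chromosomes 7, 8, 13 and 14 were below all 64, 59, 46 and 50 intervals. These ranks describe the chromosomes and carry no test.

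Most ends held fewer windows per Mb than the rest of the chromosome. Proximal ends had 59.0 windows per Mb and distal ends 75.6, against 76.9 in the rest. At proximal ends the density was lower than in the rest on 17 chromosomes and higher on 3, namely 7, 9 and 16. At distal ends it was lower on 16 and higher on 4, namely 3, 5, 7 and 10. The densest end was the distal end of chromosome 5 with 223 windows per Mb, 2.78 times the 80.2 of the rest. The sparsest was the distal end of chromosome 16 with 18 per Mb, 0.238 times the 75.7 of the rest, so its level rests on 18 common windows. Median densities of the single ends were 48 per Mb at proximal and 44.5 per Mb at distal ends, and the few dense distal ends raised the distal mean.

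Dense ends were less methylated, as were dense intervals elsewhere. Over the 40 ends the Pearson correlation of windows per Mb with level was -0.52 and Spearman's rho -0.60, and over 1182 interior intervals of 2 Mb, with their number of common windows, they were -0.53 and -0.65. Points share libraries and chromosomes, so no p is given. In stretches with under 50 common windows, 6 proximal ends averaged 51.2%, 5 distal ends 43.7% and 345 interior intervals 48.2%. With 50 to 99, 9 proximal ends averaged 44.7%, 10 distal ends 32.1% and 339 interior intervals 37.6%. With at least 100, 5 proximal ends averaged 29.0%, 5 distal ends 26.1% and 498 interior intervals 33.3%. Distal ends were thus the lower group of ends in each density class, and proximal ends lay above the interior mean in the first 2 classes and below it in the densest.

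The outer 0.5 Mb was more methylated than the next 0.5 Mb at both ends. In the outer 0.5 Mb the mean of the chromosome means was 49.2% at proximal and 36.7% at distal ends, and in the next 0.5 Mb it was 41.7% and 29.8%. From there the distal level was 33.2% at 1.0 to 1.5 Mb, 35.6% at 1.5 to 2.0 Mb and 40.3% at 2.0 to 2.5 Mb. From 2.0 to 10 Mb distal bins lay between 36.6% and 45.2%. The proximal level did not fall off at 2 Mb, and its bins lay between 40.6% and 48.2% from 2.0 to 10 Mb. Windows grew denser inward on both sides. At distal ends there were 62.3 per Mb in the outer 0.5 Mb, 103 at 1.5 to 2.0 Mb and 154 at 7.5 to 8.0 Mb, and at proximal ends 54.5, 55.6 and 97.6 per Mb. Just inside the 2 Mb limit, the last 100 kb held 64 proximal windows at 40.8% and 132 distal windows at 34.8%. Just outside it, 100 kb held 84 proximal windows at 37.9% and 143 distal windows at 39.8%. With ends of 5 Mb the distal ends no longer lay below the rest but 0.591 points above it, while with ends of 1 Mb the difference was -2.34 points.

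**Figure D2:**
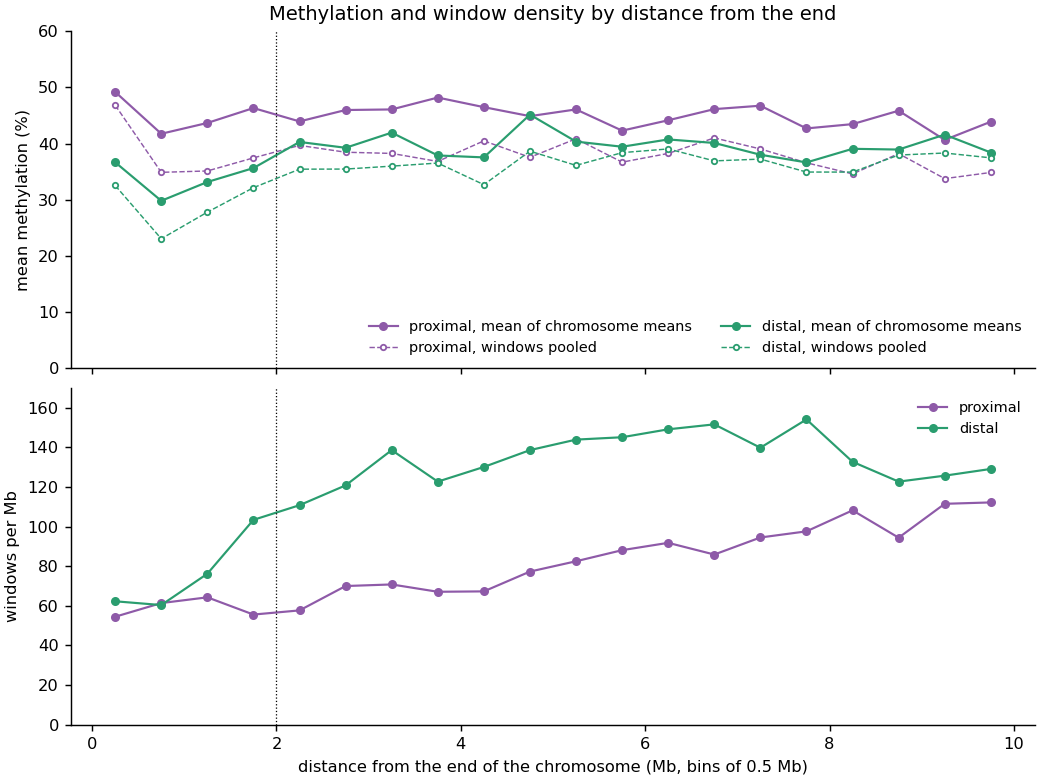
Mean methylation (%, upper panel) and windows per Mb (lower panel) in bins of 0.5 Mb up to 10 Mb from the proximal and the distal end; solid lines weight chromosomes equally, dashed lines weight windows equally, and the dotted line marks 2 Mb. Within the ends both profiles are lowest from 0.5 to 1.0 Mb, at 41.7% and 29.8%, and the distal one regains 40.3% beyond 2 Mb.

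The outermost common window of an end was on average more methylated than the end as a whole. At proximal ends these 20 windows ranged from 0.813% to 84.6% with a median of 55.0%, and at distal ends from 0.440% to 81.5% with a median of 55.6%. They lay at most 236 kb from a proximal and 74 kb from a distal end. At proximal ends 10 were at 50% or more and 3 under 10%, and at distal ends 12 and 4. The unmethylated ones were on chromosomes 2, 4 and 13 (proximal) and on chromosomes 2, 8, 10 and 17 (distal). The most methylated was the proximal window of chromosome 6 at 18001 to 19000, with 82.7% ± 10.05 in HCR, against 86.1% ± 2.81 in LCR.

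With windows pooled, both kinds of end held a larger share of windows under 10% than the rest. Only proximal ends then held a larger share of windows at 70% or more. Pooling gives dense ends more weight, and shares with chromosomes weighted equally were not computed. By chromosome the share under 10% ranged from 0% to 47.3% at proximal and from 5.56% to 54.1% at distal ends. The share at 70% or more ranged from 2.56% to 52.8% at proximal and from 3.32% to 27.8% at distal ends. Windows under 10% made up 29.5% of proximal, 36.2% of distal and 27.0% of other autosomal windows. Windows of at least 70% made up 18.2% of proximal, 8.52% of distal and 10.5% of the others. Proximal ends held fewer windows of 10 to 30% (13.1% of proximal, 18.7% of distal and 18.4% of the others). Windows also lay side by side somewhat more often, as 50.9% of proximal and 52.8% of distal windows had a measured window directly next to them, against 46.2% of the others. Adjacent common windows differed by 11.8 points on average at proximal ends (466 pairs), 11.03 at distal ends (653 pairs) and 12.4 in the rest (31332 pairs).

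Samples of one line agreed more closely at the ends than elsewhere. The median SD of a window within a line was 3.74 points in HCR and 3.71 in LCR at proximal ends, 3.70 and 3.71 at distal ends, and 4.41 and 4.34 in the rest. The mean absolute deviation of a sample from the others of its line was smaller at the ends, with a mean difference from the rest of -0.422 points for proximal ends (13 of 14 samples; exact sign-flip permutation test, adjusted p = 0.000244 over the 2 ends) and of -0.461 points for distal ends (14 of 14 samples; adjusted p = 0.000244). Between lines this reduction differed by -0.0709 points for proximal ends (exact permutation p = 0.540) and by -0.115 points for distal ends (exact p = 0.118), which did not pass the test. Each deviation is taken from the other samples of the same line, over the same windows. The 14 values are therefore not independent, which these tests ignore. Spread depends on level. Within windows under 10% the median SD was 0.632 at proximal and 0.619 at distal ends against 0.784 in the rest, and at 70% or more it was 3.58 and 3.54 against 3.90. At 10 to 30% it was 6.11 and 5.47 against 5.87, so only distal ends were below the rest there. At 30 to 50% it was 6.59 and 7.08 against 6.99, and at 50 to 70% 5.51 and 5.74 against 5.69, with proximal ends below the rest and distal ends above it. With ends of 5 Mb the difference in deviation from the rest was smaller, -0.169 points for proximal and -0.0630 points for distal ends. Of single ends, the distal end of chromosome 14 and the proximal end of chromosome 18 had the smallest median SD, 2.00 and 2.10 points, and the proximal end of chromosome 15 the largest, 5.36 points over 39 windows.

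Missing values were slightly fewer at distal ends. The share of windows a sample lacked differed by -0.498 percentage points between distal ends and the rest (12 of 14 samples; exact sign-flip permutation test, adjusted p = 0.000977 over the 2 ends). For proximal ends the difference was 0.172 points the other way (10 of 14 samples; adjusted exact sign-flip p = 0.226). Windows with a value in every sample made up 73.4% of distal, 69.5% of proximal and 69.9% of other windows.

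Which methylation differences accompany inherited running capacity was the question of the study, and at the ends the lines did not differ in mean level by a margin that passed the test. HCR samples ranged from 42.0% to 43.98% at proximal ends with a median of 43.2%, and LCR samples from 41.3% to 43.96% with a median of 42.5%. At distal ends HCR samples ranged from 32.6% to 34.9% with a median of 34.1%, and LCR samples from 31.98% to 34.3% with a median of 33.3%. The lines overlapped at both. The differences were 0.605 points at proximal ends (SE 0.398; exact permutation test over the samples, two-sided, adjusted p = 0.163 over the 2 ends; interval not rejected at 0.05 from -0.295 to 1.48) and 0.833 points at distal ends (SE 0.408; adjusted p = 0.130; interval from -0.0755 to 1.72). These differences are on the deposited scale, on which all windows together were 1.12 points higher in HCR. With each library centred they were -0.513 and -0.285 points, and with quantile normalization -0.437 and -0.180 points, and the proximal ones then passed (adjusted exact p = 0.0293 and 0.00133). Without LCR replicate 1 both deposited differences passed (0.812 and 1.00 points, adjusted exact p = 0.0449 each), and without HCR replicate 3 the distal one did (1.10 points, adjusted exact p = 0.0311).

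The proximal excess over the rest of the chromosomes was smaller in HCR. On the deposited scale HCR was the higher line in both parts, by 0.605 points at proximal ends and by 1.14 points in the rest (exact permutation p = 0.163 and 0.0669). The proximal excess over the rest ranged from 6.69 to 7.67 points in HCR with a median of 6.88, and from 7.03 to 7.97 points in LCR with a median of 7.54. Only HCR replicate 3, at 7.67 points, lay among the LCR samples, and the other 5 lay below all of them. The means were 6.98 ± 0.351 points in HCR, against 7.52 ± 0.326 points in LCR, and differed by -0.540 points (SE 0.184; exact permutation test, adjusted p = 0.0313 over the 2 ends). At distal ends the means were -2.15 ± 0.278 points in HCR and -1.84 ± 0.374 points in LCR, which differed by -0.312 points (SE 0.174; exact permutation test, adjusted p = 0.112; interval from -0.723 to 0.0782). Without LCR replicate 1 the distal difference was -0.389 points and passed (adjusted exact p = 0.0478). The proximal minus distal level was 9.13 ± 0.185 points in HCR and 9.36 ± 0.163 points in LCR, so the line difference itself differed between the ends by -0.228 points (exact permutation p = 0.0343). Both calls were close to the threshold. The proximal one was lost without any one of HCR replicates 1, 2, 4, 5 and 6 or LCR replicates 6, 7 and 8 (adjusted exact p = 0.0501 to 0.0668), and without the windows called between the lines (-0.472 points, adjusted exact p = 0.0566). The one between the ends was lost without any one of HCR replicates 1, 4, 5 and 6 or LCR replicates 1, 4 and 6 (exact p = 0.0505 to 0.0839).

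Levels were lower in libraries with more windows that lacked a value. Over 14 samples Pearson's r of this number with level was -0.69 at proximal ends, -0.61 at distal ends and -0.70 in the rest (permutation p adjusted over 9 relations 0.0243, 0.0330 and 0.0243), and Spearman's rho was -0.56, -0.53 and -0.63 (adjusted permutation p = 0.0721, 0.0836 and 0.0721). With the 2 most distant samples left out r was -0.44, -0.27 and -0.47. Within HCR r was -0.87, -0.85 and -0.89 (adjusted exact permutation p = 0.0417, 0.0425 and 0.0330), and within LCR it was -0.73, -0.69 and -0.82 (adjusted exact permutation p = 0.0425, 0.0578 and 0.0330). The level of the ends minus the rest was higher in such libraries. This measure subtracts the rest, which itself fell with that number, so the relation is not independent of those above. The rest also varied more between samples (SD 1.00 in HCR and 1.05 in LCR) than the ends (SD 0.686 and 0.801 at proximal, 0.741 and 0.775 at distal ends). At distal ends Pearson's r over 14 samples was 0.79 (permutation p = 0.000540, adjusted p = 0.00324). Spearman's rho was 0.82 (permutation p = 0.000520, adjusted p = 0.00312), each adjusted over 6 relations. Within HCR (n = 6) r was 0.95 and rho 0.94 (exact permutation p = 0.00694 and 0.0167, adjusted 0.0131 and 0.0333). Within LCR (n = 8) they were 0.88 and 0.90 (exact permutation p = 0.00223 and 0.00456, adjusted 0.00670 and 0.0137). With the 2 samples most distant from the median count left out, r was 0.77, 0.77 and 0.98 in these 3 sets. At proximal ends r was 0.61 over all samples (permutation p = 0.0195, adjusted p = 0.0235) and rho 0.49 (permutation p = 0.0781, adjusted p = 0.0937). Within HCR r was 0.85 and rho 0.60 (exact permutation p = 0.0278 and 0.242, adjusted 0.0278 and 0.242), and within LCR they were 0.84 and 0.79 (exact permutation p = 0.00871 and 0.0279, adjusted 0.0131 and 0.0419). Without the 2 farthest samples r was 0.41, 0.77 and 0.88. With this number as a covariate the distal line difference relative to the rest was -0.323 points and passed (adjusted permutation p = 0.0127), as did the distal level at 0.852 points (adjusted permutation p = 0.0473).

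**Figure D3:**
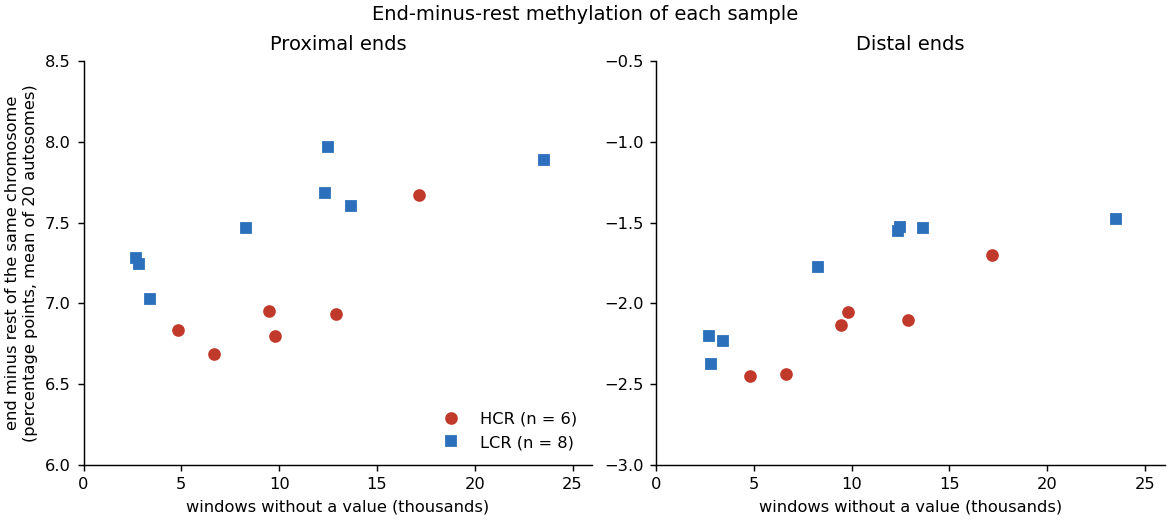
Level of the ends minus the rest of the same chromosome (percentage points, mean of 20 autosomes) against the windows without a value (in units of 1000) for each HCR (n = 6) and LCR (n = 8) sample, at proximal (left) and distal ends (right); the vertical axes do not start at 0. The values tend to rise with missing windows in both lines, least clearly for HCR at proximal ends (Spearman's rho 0.60, exact permutation p = 0.242). At proximal ends the HCR samples lie at 6.69 to 7.67 points and the LCR samples at 7.03 to 7.97 points.

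Of the 40 single ends 5 differed between the lines relative to the rest of their chromosome, and at each of the 5 the level minus the rest was lower in HCR. They were the proximal ends of chromosomes 2, 6, 11 and 20 and the distal end of chromosome 9. In level itself the proximal end of chromosome 20 was 0.179 points higher in HCR (exact permutation p = 0.692), and the others were lower. Which ends passed, and the direction, depended on the end size. With ends of 1 Mb 7 passed, among them the distal end of chromosome 1, which was higher in HCR (1.66 points, adjusted exact p = 0.0133). With ends of 5 Mb none of the 5 passed, and those that did were the proximal end of chromosome 3 (-1.51 points) and the distal end of chromosome 15, which was higher in HCR (0.713 points; adjusted exact p = 0.0400 each). On chromosome 6 the proximal excess ranged from 23.7 to 25.7 points in HCR with a median of 24.5, and from 25.6 to 27.97 points in LCR with a median of 26.3. The HCR samples lay mostly below the LCR samples, with a small overlap. The difference was -1.84 points (SE 0.428; exact permutation test, adjusted p = 0.0266 over 40 ends), with 0 called windows among its 53.

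On chromosome 2 the proximal excess ranged from 3.91 to 6.25 points in HCR and from 5.42 to 8.08 points in LCR, a difference of -1.99 points (SE 0.487; adjusted exact p = 0.0466). This end holds 3 windows called between the lines. On chromosome 11 the means were 11.5 ± 1.05 points in HCR and 13.2 ± 0.782 points in LCR (adjusted exact p = 0.0480), on chromosome 20 4.76 ± 0.550 and 5.91 ± 0.635 points (adjusted exact p = 0.0466), and at the distal end of chromosome 9 4.61 ± 0.909 and 6.43 ± 0.711 points (adjusted exact p = 0.0466). The lines overlapped at all 5 ends. Among all 40 ends 27 were lower and 13 higher in HCR relative to the rest, from -1.99 to 0.739 points, and 7 had an unadjusted exact p under 0.05. These counts are not independent, since 2 ends share one rest and all share the libraries. On the deposited scale, without subtracting the rest, 34 of 40 ends were higher in HCR and 0 passed (exact permutation test adjusted over 40 ends; 9 had an unadjusted p under 0.05). Leaving out each of the 14 samples in turn often ended these calls: chromosome 6 kept its call in 6, chromosome 9 in 4, chromosome 20 in 3, chromosome 2 in 2 and chromosome 11 in 1. The difference of chromosome 6 was -2.07 to -1.62 points over them (adjusted exact p = 0.0155 to 0.0699).

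**Figure D4:**
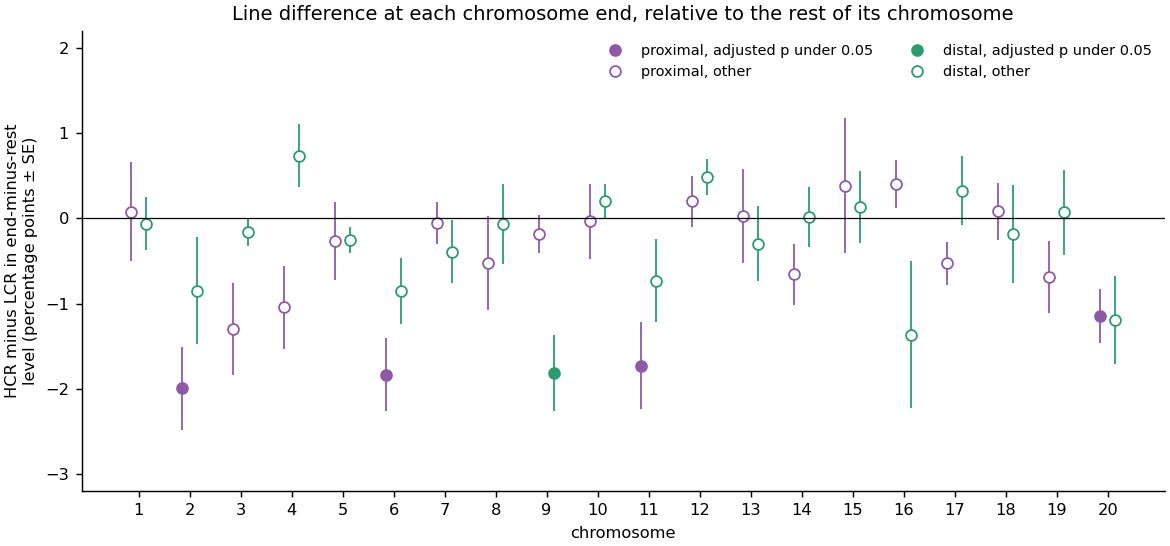
HCR minus LCR difference in the level of each chromosome end minus the rest of its chromosome (percentage points; bars, SE; HCR n = 6, LCR n = 8), with filled points for the 5 ends at an adjusted exact p under 0.05. The filled points lie between -1.99 and -1.15 points.

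Single windows were compared by limma on the log2 logit of the level over all 135802 common windows of the file. Of these, 773 (0.569%) were called at a Benjamini-Hochberg adjusted p under 0.05, with 0.405% higher and 0.164% lower in HCR. At proximal ends 13 of 1639 windows (0.793%) were called by limma, 7 higher and 6 lower in HCR. At distal ends 20 of 2219 (0.901%) were called, 16 higher and 4 lower. In the rest of the autosomes it was 721 of 127941 (0.564%). The shares at the ends are above the background by a few windows, and no test sets them apart. The directions depended on scale, since centring of the libraries (0.492% of all windows called) gave 5 higher and 9 lower at proximal ends and 10 higher and 7 lower at distal ends. Quantile normalization (0.497% called) gave 5 higher and 8 lower at proximal ends and 11 higher and 5 lower at distal ends. Leaving out HCR replicate 2 left 8 calls at proximal ends, and the share of all windows called in that fit is not given. The lines did not overlap in 17 proximal (1.04%) and 18 distal windows (0.811%), against 0.71% of all windows tested, and in 22 of the 33 called ones.

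The calls were uneven along and among the ends. They fell on 8 proximal and 10 distal ends. The proximal end of chromosome 18 held 4 of 71 windows (5.63%), and the distal end of chromosome 1 held 4 of 93 (4.30%). The distal ends of chromosomes 3 and 14 held 3 of 250 (1.2%) and 3 of 61 (4.92%), and the proximal end of chromosome 2 held 3 of 68 (4.41%). Of all windows tested 0.569% were called. The outer 0.5 Mb of the distal ends had 8 calls in 430 windows (1.86%) and the next 0.5 Mb had 0 in 463. Further in, there were 8 calls in 568 windows (1.41%) at 1.0 to 1.5 Mb and 4 in 758 (0.528%) at 1.5 to 2.0 Mb. Beyond the ends, the bin at 2.0 to 2.5 Mb on the proximal side had 6 calls in 399 windows. The distal calls were thus not confined to the outermost bin. Of the 40 outermost common windows, one for each end, 4 were called (10%, against the background of 0.569%), namely those of chromosomes 8 and 18 (proximal) and of chromosomes 1 and 14 (distal). Among the 5 outermost of each end, 200 windows, 6 were called (3%). These distances were chosen after the values were seen.

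At proximal ends the largest difference was on chromosome 2, in a window at 1364001 to 1365000. It was methylated at 7.26% to 18.8% in HCR with a median of 13.5%, and at 35.7% to 71.7% in LCR with a median of 55.1%. All HCR samples were low and the lines were far apart (difference -41.9 points; limma adjusted p = 0.000288). Its neighbour at 1363001 to 1364000 was lower in HCR as well, at 3.67% to 12.3% with a median of 7.39%, against 14.0% to 30.7% with a median of 17.5% in LCR (-11.98 points; limma adjusted p = 0.0440). The next window toward the chromosome end, at 1362001 to 1363000, had 7.29% ± 1.49 in HCR, against 14.6% ± 4.94 in LCR, and was not called (limma adjusted p = 0.119). The call of the neighbour was lost in 12 of the 14 fits that left out a sample (limma adjusted p up to 0.102), that of the main window in 0 of them.

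On chromosome 3, a window at 1380001 to 1381000 had 2.85% to 31.2% in HCR with a median of 23.7%, and 40.4% to 74.9% in LCR with a median of 58.1%. The lines did not overlap, but the HCR samples were widely spread. The difference was -36.6 points (limma adjusted p = 0.0270), and the call was lost without HCR replicate 6 or LCR replicate 2, 5 or 7 (limma adjusted p = 0.0525 to 0.0687). This window lies in the proximal end with the highest level of all, and 0 common windows lay within 50 kb of it.

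Chromosome 18 carried 4 of the 7 proximal windows that were higher in HCR. At 1566001 to 1567000 HCR samples had 29.9% to 51.7% with a median of 38.0%, and LCR samples 18.0% to 27.7% with a median of 20.5% (17.6 points; limma adjusted p = 0.0125). At 123001 to 124000, its outermost common window, HCR samples had 72.6% to 83.8% with a median of 81.1%, and LCR samples 49.3% to 70.8% with a median of 65.7% (16.5 points; limma adjusted p = 0.0138). The lines did not overlap in either window. Another lay at 146001 to 147000, with 90.1% ± 1.49 in HCR, against 82.3% ± 1.37 in LCR, a small difference of 7.81 points between 2 tight groups (limma adjusted p = 0.00126). The last, at 663001 to 664000, had 74.3% ± 7.32 in HCR, against 56.9% ± 6.67 in LCR, with overlap (limma adjusted p = 0.0442). Its call was lost in 11 of the 14 fits that left out a sample (limma adjusted p up to 0.0965) and after centring (0.0809) or quantile normalization (0.0634).

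The other named proximal windows were single ones on 4 chromosomes. On chromosome 7, at 1663001 to 1664000, HCR samples were almost fully methylated at 94.7% ± 4.07, against 77.8% ± 6.48 in LCR (limma adjusted p = 0.0227), and the lines did not overlap. Without HCR replicate 5 or 6 this call was lost (limma adjusted p = 0.0569 and 0.0503). On chromosome 16, at 1226001 to 1227000, the levels were 40.2% ± 6.66 in HCR, against 22.7% ± 5.15 in LCR (limma adjusted p = 0.0260), with a call that was lost without HCR replicate 2, 3, 4 or 5 (up to 0.0705). The window next to it, at 1227001 to 1228000, had 63.1% ± 3.89 in HCR, against 60.6% ± 5.88 in LCR, and was not called (limma adjusted p = 0.799).

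Lower in HCR was a window on chromosome 12 at 1276001 to 1277000, with 39.3% ± 4.31 in HCR, against 53.3% ± 5.77 in LCR (limma adjusted p = 0.0406), whose call was kept in 2 of the 14 fits that left out a sample. Lower too was one on chromosome 11 at 321001 to 322000, with 69.1% ± 4.60 in HCR, against 81.8% ± 4.05 in LCR (limma adjusted p = 0.0167), whose call was kept in 14 of them. The remaining called proximal windows differed by 10.1 points (chromosome 2, higher in HCR) and -8.83 points (chromosome 8, at 102001 to 103000, lower in HCR).

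At distal ends the largest difference was at the very last measured window of chromosome 1, at 260517001 to 260518000, with 62.3% to 70.6% in HCR, median 66.3%, and 9.77% to 39.0% in LCR, median 22.4%. The window before it, at 260516001 to 260517000, was also higher in HCR, at 73.7% to 85.95% with a median of 81.0%, against 58.4% to 68.2% with a median of 61.8% in LCR. No sample of one line reached the other in either window (45.0 and 17.3 points; limma adjusted p = 0.000376 and 0.00200). On the same chromosome, 1.39 Mb from the end, the window at 259131001 to 259132000 went the other way. It had 44.5% to 53.1% in HCR with a median of 47.6%, and 64.5% to 76.1% in LCR with a median of 73.4% (-24.7 points; limma adjusted p = 0.000108). The window next to that one, at 259132001 to 259133000, had 50.1% ± 2.67 in HCR, against 52.1% ± 5.73 in LCR, and was not called (limma adjusted p = 0.846).

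Chromosome 14 also differed at its outermost common window, at 104876001 to 104877000. HCR samples had 40.2% to 51.1% there with a median of 42.0%, and LCR samples 45.9% to 71.4% with a median of 69.3%. LCR replicate 4, at 45.9%, lay within the HCR range, and the difference was -21.2 points (limma adjusted p = 0.0200). Further in, 2 windows 40 kb apart were higher in HCR. At 103605001 to 103606000 the level was 73.9% ± 8.17 in HCR, against 50.1% ± 8.23 in LCR (limma adjusted p = 0.0150), without overlap. At 103645001 to 103646000 it was 74.6% ± 1.98 in HCR, against 60.5% ± 7.25 in LCR (limma adjusted p = 0.0398).

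On chromosome 10 a window 1.96 Mb from the end, at 105215001 to 105216000, was nearly unmethylated in some HCR samples. They ranged from 0.926% to 22.1% with a median of 6.60%, and LCR samples from 17.9% to 53.5% with a median of 46.5%. HCR replicate 3 at 22.1% and LCR replicate 8 at 17.9% made the lines overlap (-33.9 points; limma adjusted p = 0.0125). Chromosome 8 had a called window at 122837001 to 122838000, with 53.8% to 83.8% in HCR with a median of 67.3%, and 34.2% to 46.5% in LCR with a median of 38.95% (26.8 points; limma adjusted p = 0.00980). The adjacent window at 122836001 to 122837000 stood at 44.7% ± 3.60 in HCR, against 49.1% ± 9.48 in LCR (limma adjusted p = 0.752).

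The last named distal windows differed less. On chromosome 9, at 112966001 to 112967000, the window had 52.2% ± 5.74 in HCR, against 67.9% ± 5.37 in LCR (limma adjusted p = 0.0234). On chromosome 5, at 165686001 to 165687000, the levels were 38.2% ± 4.66 in HCR, against 22.8% ± 4.34 in LCR (limma adjusted p = 0.0221), and on chromosome 12, at 46284001 to 46285000, they were 52.4% ± 2.82 in HCR, against 37.4% ± 5.81 in LCR (limma adjusted p = 0.0241). Each of these 3 calls was lost in 4 of the 14 fits that left out a sample, those without HCR replicate 3, 4, 5 or 6 on chromosome 9 (limma adjusted p up to 0.0615), 1, 2, 4 or 6 on chromosome 5 (up to 0.0586) and 1, 2, 3 or 6 on chromosome 12 (up to 0.0603). The other 10 called distal windows were all higher in HCR, by 1.92 to 14.03 points; after centring or quantile normalization fewer distal windows were higher, as given above. Of these, 3 were unmethylated ones with small differences, on chromosome 20 at 52832001 to 52833000 (9.63% ± 2.53 in HCR, against 3.42% ± 0.722 in LCR) and on chromosome 3 at 167519001 to 167520000 (6.79% ± 2.00 in HCR, against 1.30% ± 1.43 in LCR) and at 168568001 to 168569000 (4.26% ± 0.764 in HCR, against 2.33% ± 0.352 in LCR).

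**Figure D5:**
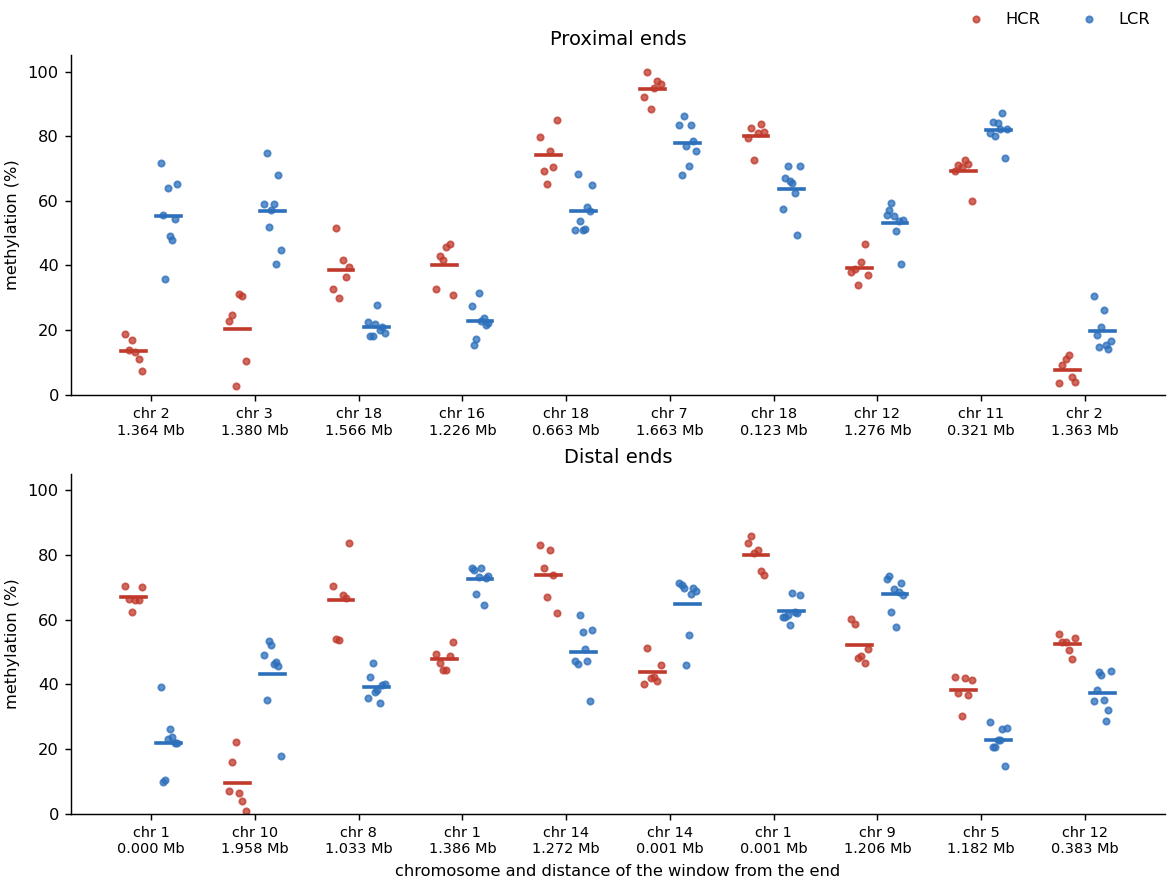
Methylation (%) of each HCR (left, n = 6) and LCR (right, n = 8) sample in the 10 called windows with the largest line difference at proximal (upper) and distal ends (lower), labelled by chromosome and distance from the end in Mb; lines mark the means. The lines do not overlap in the first proximal window (13.5% and 55.5%) or in the first distal one (66.9% and 21.9%).

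The line difference varied with the class of level. In windows of at least 70% HCR minus LCR was 0.189 points at proximal ends (77.4% ± 0.210 in HCR, against 77.2% ± 0.395 in LCR), 1.01 points at distal ends and 0.719 points in the rest. In windows under 10% it was 0.385, 0.263 and 0.364 points, and in windows of 30 to 50% it was 1.12, 1.71 and 1.77 points. The difference between the 2 ends within a class was not tested.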

How the data were processed

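The authors deposited one table of percent methylation for windows of 1000 bp in 14 soleus samples, 6 of the HCR and 8 of the LCR line, per the file headers and the labels. Trim Galore 0.6.10, FastQC, Bismark and Bowtie2 and the build rn7 are named in the submitters' processing notes. No source used here states how windows or read depths were filtered, and depth is unknown, so no counting interval is given. Every window had at least 4 HCR and 4 LCR values.

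The members and lists were chosen with earlier results of these data known. Ends were 2 Mb long, and windows with a value in all 14 samples were used. Levels of the ends were averaged within a chromosome and then over the 20 autosomes. Lines were compared by exact permutation over the samples, and ends with the rest by exact sign flips over samples, all two-sided, with scipy 1.17.1, numpy 2.4.6 and pandas 2.3.3 under Python 3.11.15. The intervals hold the differences that this permutation test does not reject at 0.05. Windows were compared with limma 3.58.1 in R 4.3.3 on the log2 logit of the level with an offset of 0.01, with empirical Bayes moderation and Benjamini-Hochberg adjustment over 135802 windows. In the tests of the 2 ends, of 40 ends and of 6 correlations, p-values were adjusted over that family. The named windows were the 10 called windows with the largest difference in points at each kind of end. The scripts were tested on simulated data. Other end sizes, transformations, normalizations, filters, a covariate, the sample numbers as a block and the leaving out of each sample were tried. No 2 samples had identical values: over the end windows the closest differed by 4.63 points on average. Whether 2 samples came from one rat cannot be told from this.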

Additional observations from a re-analysis of the deposited data

Results flagged for a closer look

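In 4 of 56 sets of values, each one measure or named window within one line, a single sample stood far from the others, where chance gives about 1 in 20. In the proximal level minus the rest, HCR replicate 3 had 7.67 points and the other HCR samples 6.69 to 6.95 points. In the window of chromosome 18 at 1566001 to 1567000, LCR replicate 5 had 27.7% and the other LCR samples 18.0% to 22.5%. In the window of chromosome 12 at 1276001 to 1277000, LCR replicate 7 had 40.5% and the other LCR samples 50.5% to 59.4%. In the window of chromosome 11 at 321001 to 322000, HCR replicate 6 had 60.02% and the other HCR samples 69.3% to 72.5%.

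The line difference was not the same at both kinds of end. Proximal minus distal level was 9.13 ± 0.185 points in HCR, against 9.36 ± 0.163 points in LCR, a contrast of -0.228 points (exact permutation p = 0.0343).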

How the results depend on the processing

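The proximal excess over the rest and the smaller spread at both ends kept their sign and call under every alternative run on them. Distal minus rest changed sign with ends of 5 Mb (0.591 points). The line differences in level turned to -0.513 (proximal) and -0.285 points (distal) with centred libraries and to -0.437 and -0.180 points with quantile normalization, and the distal one passed with the missing windows as covariate (0.852 points). The proximal line difference relative to the rest no longer passed with ends of 5 Mb (-0.315 points), medians over windows (-0.933), 12 samples (-0.452), or without the called windows (-0.472), and the distal one passed with the covariate (-0.323). Its contrast between the ends did not pass with ends of 1 Mb (-0.295) or quantile normalization (-0.256). The causes were not tested.

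The number of ends called, 5 in the report, was 7 with ends of 1 Mb (1 of them higher in HCR), 6 with quantile normalization, 2 with ends of 5 Mb (1 higher in HCR, neither among the 5), 0 with all windows, 0 with 12 samples, 1 with the covariate and 1 without the called windows. Proximal and distal windows called numbered 6 and 8 with ends of 1 Mb and 38 and 55 with ends of 5 Mb, where fewer or more windows were tested. These counts come from the same limma fit as the report, in which 0.569% of all windows were called. They follow the number of windows in an end, and their shares are not given. Proximal calls were 8 without moderation and 6 with 12 samples. The share of all windows called in either fit is not given, so a change at the ends cannot be told from one over the whole file. The fits with 12 samples, without the called windows, and with the covariate for the 40 ends were chosen after seeing the data.

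The sample numbers shared by the lines gave no sign of pairing (same-number correlations -0.0314 to 0.0339, 0 of 6 over 0.1, 1 of 6 highest with its own number). What the numbers mark is not stated, so a shared batch or order cannot be told from them. With the replicate block of 6 pairs the line difference relative to the rest was -0.452 points at proximal ends (adjusted exact p = 0.3125). Its contrast between the ends was -0.247 points (exact p = 0.156). The smallest p of this exact test is 0.03125, reached by the proximal end of chromosome 6 and the distal end of chromosome 4. Adjusted over all single ends, this p became 0.417 for each. That 0 single ends passed therefore decides nothing about them. With the block, limma called 1 proximal and 2 distal windows, against 71 of all windows (0.0523%).

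Leaving out each sample in turn gave line differences in level of 0.431 to 0.827 points (proximal) and 0.658 to 1.10 points (distal), relative to the rest of -0.678 to -0.476 and -0.401 to -0.251 points, and between the ends of -0.277 to -0.173 points. It gave 0 to 8 ends called (the proximal end of chromosome 16 higher in HCR without HCR replicate 6), 8 to 12 proximal and 14 to 24 distal windows called. The share of all windows called in each of these fits is not given. Of the 20 named windows 11 kept their call in all 14 of these fits and 3 in all 23 alternatives, and 0 changed sign. Read depth behind a window is unknown, and the number of libraries limits the precision.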
